A study of Saccharomyces cerevisiae with 6 samples.

Results

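The 10 genes described here carry budding yeast (Saccharomyces cerevisiae) from inorganic sulfate to methionine, S-adenosylmethionine and cystathionine. The rule that names them uses their place in the pathway: MET3, MET14, MET16, MET5, MET10, MET17, MET6, SAM1, SAM2 and CYS4. All 10 were found by systematic name among the 6282 genes of the table, and all 10 were among the 6208 genes tested. In each array RNA of a culture grown with little oxygen (hypoxic) was set against RNA of a culture of the same strain grown with air (aerobic). On 3 arrays both cultures lacked HAP1, which encodes a transcription factor that responds to heme, and on 3 arrays both were wild type (WT). The replicates were separate cultures from different days, according to the series' design text. The strain background, the medium and the oxygen level were not stated in the labels used here. In both strains the hypoxic RNA carried the dye Cy5 on replicates 1 and 3, and Cy3 on replicate 2.

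Every value below is a log2 ratio of hypoxic over aerobic RNA, so that 1 means a doubling and a value below 0 means less RNA in hypoxia. Such a ratio is relative to the other genes of the array, and gives no level of a gene. Ratios from whole cultures cannot tell fewer expressing cells from less RNA per cell. Because both cultures of an array were of the same strain, the ratios do not show whether HAP1 was missing. Across all genes the correlation between replicate arrays (Pearson r) was 0.329 to 0.575 in the hap1 deletion and 0.412 to 0.539 in WT. Missing values numbered 678 on hap1 deletion replicate 1, which is 10.8% of the rows, and 15 to 349 on the other arrays.

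Yeast takes up sulfate, couples it to ATP, reduces it to sulfite and then to sulfide, and joins the sulfide to O-acetylhomoserine to make homocysteine. Homocysteine is methylated to methionine or passed on to cysteine. Methionine and ATP form S-adenosylmethionine, the methyl donor of the cell, among others for the methylation of sterols, and the spent donor is cleaved back to homocysteine and adenosine. Most genes of the route are switched on together by the activator Met4 when sulfur amino acids are short.

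Only 1 of the 10 genes passed the test in each strain, CYS4 in the hap1 deletion and SAM2 in WT. CYS4 and SAM1 had the lowest strain means in the hap1 deletion (log2 -1.41 and -1.65), and SAM1 and SAM2 in WT (log2 -1.32 and -1.33). The genes that reduce sulfate and make methionine had strain means between -1.36 and 0.70 in the hap1 deletion and between -0.02 and 0.59 in WT. The -1.36 was that of MET5, close to the mean of CYS4, and became -0.25 without hap1 deletion replicate 3. In limma's moderated test with Benjamini-Hochberg adjustment over all genes, 1 of the 10 genes fell in the hap1 deletion (CYS4), none rose and 9 did not pass; of all genes 1.82% fell and 2.50% rose in this strain. In WT 1 of the 10 fell (SAM2), none rose and 9 did not pass, where 2.32% of all genes fell and 1.92% rose. The members' median was -0.04 in the hap1 deletion and 0.23 in WT, beside medians over all genes tested of -0.06 in the hap1 deletion and -0.04 in WT. Unadjusted p-values were under 0.05 for 2 of the 10 in the hap1 deletion and for 3 in WT, beside 24.7% of all genes in the hap1 deletion and 24.1% in WT.

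**Figure D1:**
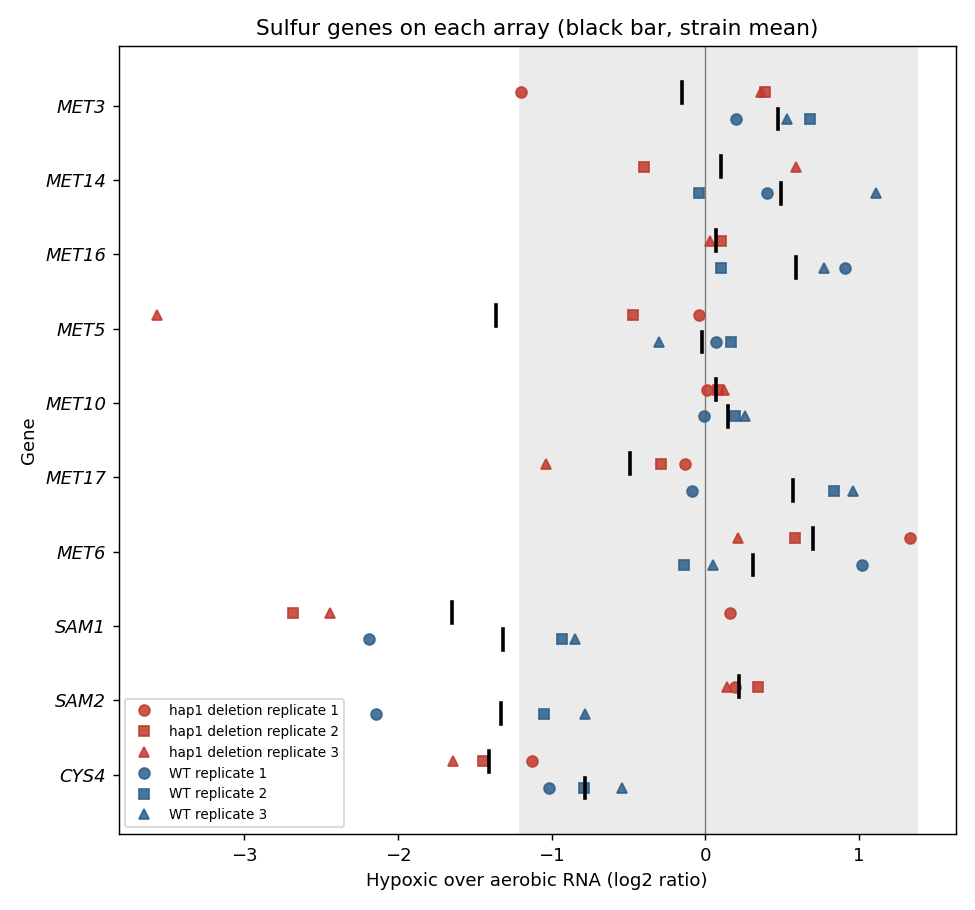
Log2 ratio of hypoxic over aerobic RNA (horizontal axis) of the 10 genes (rows, in pathway order) on each array, with hap1 deletion arrays in red above WT arrays in blue, replicates as circle, square and triangle, and strain means as black bars. The grey band runs from -1.21 to 1.38, the median over the 6 arrays of the 5th and 95th percentiles of all genes tested. SAM2 lies above 0 on the hap1 deletion arrays and below 0 on the WT arrays, CYS4 lies below 0 on all 6, and MET5 has 1 value of -3.57.

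MET3 (YJR010W) encodes ATP sulfurylase, which activates sulfate. Its ratio was -1.20, 0.39 and 0.36 on hap1 deletion replicates 1 to 3 and 0.20, 0.68 and 0.53 on WT replicates 1 to 3. Replicate 1 of the deletion stood below the other arrays, which all lay above 0. The means were -0.15 ± 0.90 in the hap1 deletion (SD, n = 3; limma adjusted p = 0.802) and 0.47 ± 0.25 in WT (SD, n = 3; limma adjusted p = 0.424). Without hap1 deletion replicate 1 the sign of the deletion mean turned, to 0.37.

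MET14 (YKL001C), adenylylsulfate kinase, which adds a second phosphate to activated sulfate, had no value on hap1 deletion replicate 1. It read -0.40 and 0.59 on hap1 deletion replicates 2 and 3, and 0.40, -0.04 and 1.11 on WT replicates 1 to 3. The strains overlapped, and neither mean passed (0.10 ± 0.71 in the hap1 deletion, n = 2, with limma adjusted p = 0.90, and 0.49 ± 0.58 in WT, n = 3, with limma adjusted p = 0.378). MET16 (YPR167C) encodes the reductase that turns this activated sulfate into sulfite, with thioredoxin as the electron donor. It too lacked a value on hap1 deletion replicate 1, and read 0.10 and 0.03 on replicates 2 and 3, against 0.91, 0.10 and 0.77 on WT replicates 1 to 3. No array put MET16 below 0. Its WT mean of 0.59 ± 0.43 (SD, n = 3) had an unadjusted p under 0.05 and did not pass (limma adjusted p = 0.177), nor did the hap1 deletion mean of 0.07 (n = 2; limma adjusted p = 0.905).

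Sulfite reductase, a siroheme enzyme with MET10 and MET5 as the genes of its alpha and beta subunits, makes sulfide. MET10 (YFR030W) was the steadiest of the 8 members with 6 values, at 0.01, 0.08 and 0.12 on the hap1 deletion arrays and -0.01, 0.19 and 0.26 on the WT arrays. Its range over the deletion arrays was 0.11, and 97.9% of genes with 3 values there had a range at least as large. MET5 (YJR137C) read -0.04, -0.47 and -3.57 on hap1 deletion replicates 1 to 3 and 0.07, 0.17 and -0.30 on WT replicates 1 to 3. Hap1 deletion replicate 3 thus stood apart from the other 5 arrays for MET5, at percentile 0.0808 among all genes of that array, while MET10 on the same array was at percentile 61.1. A range as large as that of MET5 over the deletion arrays, 3.53, was found in 1.27% of genes. The MET5 mean of -1.36 ± 1.93 in the hap1 deletion (SD, n = 3) did not pass (limma adjusted p = 0.228) and became -0.25 without replicate 3. In WT neither subunit passed, with means of -0.02 ± 0.25 for MET5 and 0.15 ± 0.14 for MET10 (SD, n = 3 each; limma adjusted p = 0.988 and 0.609).

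MET17 (YLR303W) encodes the sulfhydrylase that joins sulfide to O-acetylhomoserine and so makes homocysteine. It read -0.13, -0.29 and -1.04 on hap1 deletion replicates 1 to 3, against -0.09, 0.84 and 0.96 on WT replicates 1 to 3. All deletion arrays lay below all WT arrays, by a gap of 0.04 at the nearest pair. The strain means were -0.49 ± 0.49 in the hap1 deletion and 0.57 ± 0.58 in WT (SD, n = 3 each), and neither passed (limma adjusted p = 0.321 and 0.264). MET6 (YER091C), the cobalamin-independent methionine synthase, read 1.33, 0.58 and 0.21 on the hap1 deletion arrays and 1.02, -0.14 and 0.05 on the WT arrays. Replicate 1 was the highest in both strains, and the strains overlapped. Its means of 0.70 ± 0.57 in the hap1 deletion and 0.31 ± 0.62 in WT (SD, n = 3 each) did not pass (limma adjusted p = 0.207 and 0.567). Without WT replicate 1 the WT mean of MET6 was -0.04.

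SAM1 and SAM2 encode closely related S-adenosylmethionine synthetases, which join methionine and ATP. Their sequences are very similar, so that spots may share signal; the probes were not analysed here. SAM1 (YLR180W) read 0.16, -2.68 and -2.44 on hap1 deletion replicates 1 to 3 and -2.19, -0.93 and -0.85 on WT replicates 1 to 3. It was low on 5 arrays and stood near 0 on hap1 deletion replicate 1, the array with the most missing values; the part of that array's quality in this value was not tested. The SAM1 means were -1.65 ± 1.58 in the hap1 deletion and -1.32 ± 0.75 in WT (SD, n = 3 each), and neither passed (limma adjusted p = 0.132 and 0.209). Without hap1 deletion replicate 1 the SAM1 mean of that strain was -2.56 and passed (limma adjusted p = 0.0358). That was the only 1 of 15 alternative settings in which it passed. Without hap1 deletion replicate 2 or 3 the mean was -1.14 or -1.26 (limma adjusted p = 0.415 and 0.362).

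SAM2 (YDR502C) read 0.19, 0.34 and 0.14 on hap1 deletion replicates 1 to 3, against -2.14, -1.05 and -0.78 on WT replicates 1 to 3. The strains lay on opposite sides of 0, with 0.92 between the lowest deletion array and the highest WT array. SAM2 averaged 0.22 ± 0.11 in the hap1 deletion and -1.33 ± 0.72 in WT (SD, n = 3 each). The WT mean, a 2.51-fold fall, passed narrowly (limma adjusted p = 0.0481), and the deletion mean did not (limma adjusted p = 0.646). Whichever of the 6 arrays was left out, the WT call was lost (limma adjusted p from 0.0551 to 0.159), and over 15 alternative settings SAM2 passed in 4, with adjusted p from 0.0316 to 0.274.

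The synthetase genes ran together on 4 arrays and apart on the other two. SAM1 minus SAM2 was -0.05, 0.12 and -0.06 on WT replicates 1 to 3 and -0.02 on hap1 deletion replicate 1. On hap1 deletion replicates 2 and 3 it was -3.03 and -2.58, with SAM1 at percentiles 0.179 and 0.453 among all genes of those arrays and SAM2 at percentiles 73.7 and 62.5. These arrays had opposite dye orientation. The pair was singled out after its values were seen, and the gap was not tested.

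**Figure D2:**
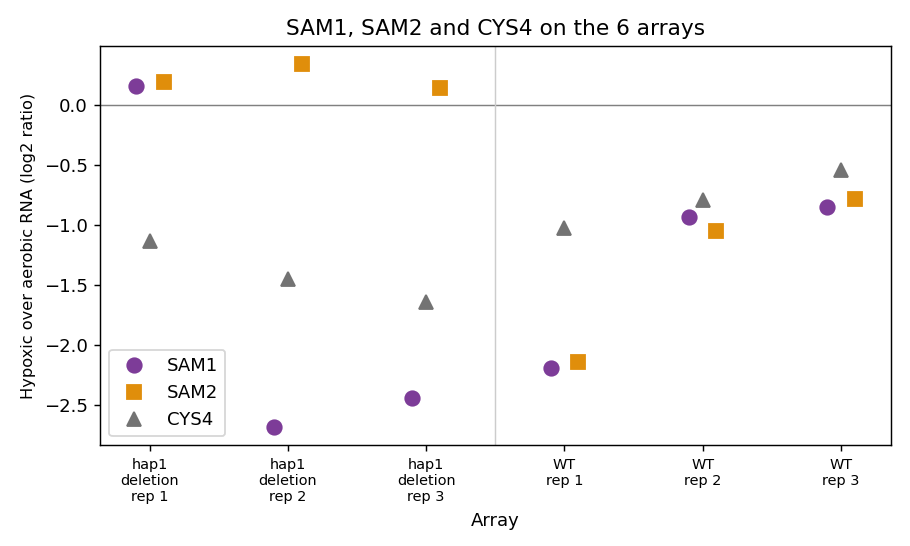
Log2 ratio of hypoxic over aerobic RNA (vertical axis) of SAM1 (circles), SAM2 (squares) and CYS4 (triangles) on hap1 deletion replicates 1 to 3 (left) and WT replicates 1 to 3 (right). SAM1 and SAM2 differ by at most 0.12 on the WT arrays and on hap1 deletion replicate 1, and by -3.03 and -2.58 on hap1 deletion replicates 2 and 3.

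CYS4 (YGR155W) encodes cystathionine beta-synthase, which draws homocysteine off toward cysteine. It read -1.13, -1.45 and -1.64 on hap1 deletion replicates 1 to 3 and -1.02, -0.79 and -0.54 on WT replicates 1 to 3. CYS4 was the only member below 0 on all 6 arrays, a pattern shown by 15.8% of all genes with 6 values, and the deletion arrays lay below the WT arrays by a gap of 0.11. Among all genes of an array it was at percentiles 6.0, 1.98 and 2.17 on the hap1 deletion arrays and at 8.03, 11.0 and 18.1 on the WT arrays. The hap1 deletion mean of -1.41 ± 0.26 (SD, n = 3), a 2.65-fold fall, passed (limma adjusted p = 0.0142). The WT mean of -0.78 ± 0.24 (SD, n = 3) did not (limma adjusted p = 0.0633). The deletion call was lost without hap1 deletion replicate 2 (adjusted p = 0.107) or replicate 3 (adjusted p = 0.0594), and the means there were -1.39 and -1.29. In WT CYS4 passed in 2 of 15 alternative settings, with limma adjusted p from 0.0469 to 0.353. These were centring and scaling (adjusted p = 0.0469) and testing only genes with 6 values (adjusted p = 0.0487). It passed in none of the 6 fits that left out an array (limma adjusted p from 0.0563 to 0.226).

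A further comparison asked whether the hypoxic response of these genes differed between the strains, tested as the strain by oxygen interaction. None of the 10 genes passed limma's test of the difference, where 0.354% of all genes passed. Unadjusted p was under 0.05 for 2 of the 10, SAM2 and MET17, beside 7.97% of all genes. The largest difference was that of SAM2, 1.55 (95% interval 0.64 to 2.46; limma adjusted p = 0.329), and MET17 differed by -1.06 (95% interval -1.99 to -0.13; limma adjusted p = 0.566). For CYS4 the difference was -0.62 (95% interval -1.25 to 0.00; limma adjusted p = 0.624) and for SAM1 it was -0.33 (95% interval -2.21 to 1.55; limma adjusted p = 0.932). The SAM1 difference was -1.24, 0.19 and 0.06 without hap1 deletion replicates 1, 2 and 3, and 0.38 over the Cy5-hypoxic arrays only. MET5 had the widest interval, -3.42 to 0.73 around -1.34, which became -0.23 without hap1 deletion replicate 3, and MET10 the narrowest, -0.61 to 0.46 around -0.08. Differences were below 0 for 8 of the 10 genes and above 0 for MET6 and SAM2, with a median of -0.46 beside -0.03 over all genes. The share of all genes with a difference below 0 was not counted. The arrays of the strains did not overlap for 3 of the 8 members with 6 values, namely SAM2, MET17 and CYS4, beside 15.2% of all genes with 6 values.

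**Figure D3:**
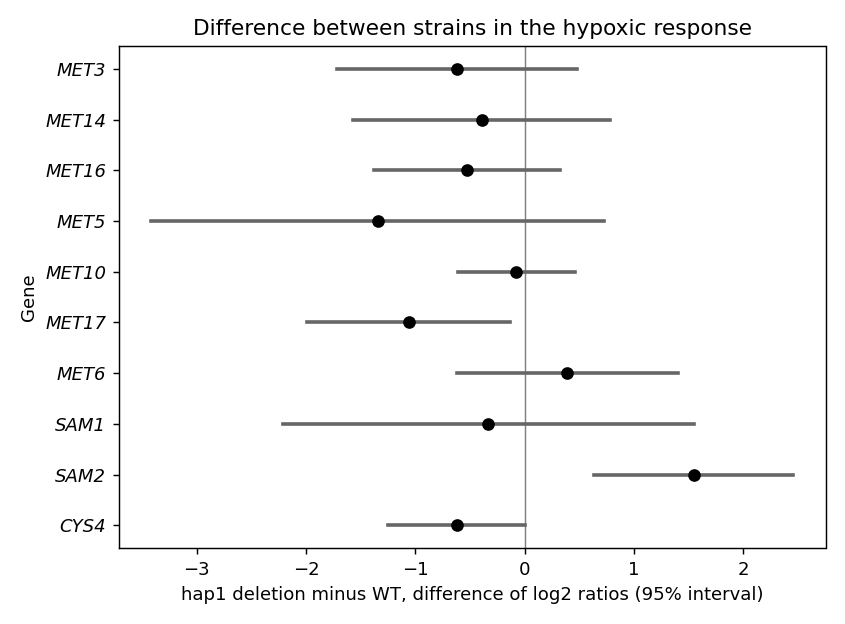
Difference of log2 ratios, hap1 deletion minus WT (horizontal axis), for the 10 genes, with points for the fitted difference and lines for limma's 95% interval before adjustment for the number of genes. The intervals of SAM2 (0.64 to 2.46) and MET17 (-1.99 to -0.13) lie on 1 side of 0, and no gene passed after adjustment over all genes.

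The rest of the sulfur network was covered by 10 lists with 51 genes, all of them tested. In the hap1 deletion 1 of the 51 fell and none rose, beside 1.82% of all genes that fell and 2.50% that rose. In WT 3 of the 51 fell and none rose, beside 2.32% and 1.92% of all genes. None of the 51 passed for the difference between strains, where unadjusted p was under 0.05 for 7 of them, beside 7.97% of all genes. The medians over the 51 genes were -0.10 in the hap1 deletion, -0.03 in WT and -0.11 for the difference, beside -0.06, -0.04 and -0.03 over all genes.

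Among 9 genes of the methyl cycle and folate, 2 fell in WT, beside 2.32% of all genes. None passed in the hap1 deletion, where 1.82% of all genes fell and 2.50% rose. SAH1 (YER043C), which cleaves the spent methyl donor S-adenosylhomocysteine, read -0.18, -0.02 and 0.09 on the hap1 deletion arrays and -0.77, -1.19 and -1.18 on the WT arrays. Every WT array lay below every deletion array. The strains did not overlap, in either direction, for 15.2% of all genes with 6 values. The WT mean of SAH1, -1.05 ± 0.24 (SD, n = 3), passed (limma adjusted p = 0.0330). ADO1 (YJR105W), the adenosine kinase that removes the adenosine so released, read -0.47, -0.29 and -0.31 on the hap1 deletion arrays and -1.85, -0.89 and -1.04 on the WT arrays. It showed the same order, with a WT mean of -1.26 ± 0.51 (SD, n = 3; limma adjusted p = 0.0362).

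Of 8 genes that salvage methionine from methylthioadenosine or make polyamines, 1 fell in the hap1 deletion and 1 in WT, beside 1.82% and 2.32% of all genes. Unadjusted p was under 0.05 for 6 of the 8 in each strain, beside 24.7% of all genes in the hap1 deletion and 24.1% in WT. In the hap1 deletion the means of these 6 were all below 0. In WT they were below 0 except that of UTR4, at 0.64 (limma adjusted p = 0.168). Means ran from -0.91 to 0.43 in the hap1 deletion (median -0.62) and from -1.70 to 0.64 in WT (median -0.57). The medians over all genes were -0.06 and -0.04. The 8 genes were not tested as a set. ADI1 (YMR009W), the acireductone dioxygenase of methionine salvage, which uses oxygen, read -0.17, -0.02 and -0.12 in the hap1 deletion and -1.06, -2.57 and -1.48 in WT. Its WT mean of -1.70 ± 0.78 (SD, n = 3) passed (limma adjusted p = 0.0330). SPE3 (YPR069C), spermidine synthase, was below 0 on all 6 arrays, as were 15.8% of all genes with 6 values. It averaged -0.91 ± 0.08 in the hap1 deletion and -0.42 ± 0.36 in WT (SD, n = 3 each). The deletion mean passed (limma adjusted p = 0.0482) and the WT mean did not (limma adjusted p = 0.238). SPE4, spermine synthase, was likewise below 0 on all 6 arrays. It had means of -0.89 ± 0.14 in the hap1 deletion and -1.05 ± 0.54 in WT, which missed the threshold (limma adjusted p = 0.0756 and 0.0533). The differences between strains for SAH1 (1.01), ADO1 (0.90) and ADI1 (1.60) did not pass either (limma adjusted p = 0.320, 0.531 and 0.341). The WT calls of SAH1, ADO1 and ADI1 were lost without any 1 of the WT arrays and without hap1 deletion replicate 2, and that of SPE3 in the deletion was lost in 5 of the 6 fits that left out an array. Over 15 alternative settings SAH1, ADO1 and ADI1 each passed in 7 in WT, and SPE3 in 4 in the hap1 deletion.

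**Figure D4:**
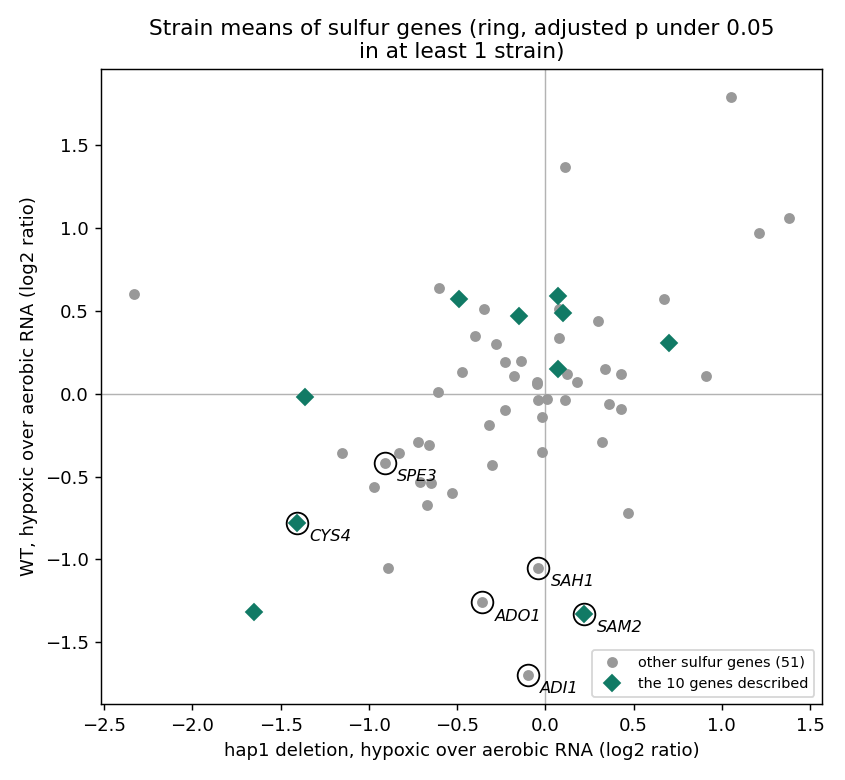
Mean log2 ratio of hypoxic over aerobic RNA in the hap1 deletion (horizontal axis) and in WT (vertical axis) for the 10 genes (diamonds) and the other 51 sulfur genes (grey circles); rings and names mark genes with a limma adjusted p under 0.05 in at least 1 strain. SAM2, SAH1, ADO1 and ADI1, the genes that passed in WT, lie between -1.70 and -1.05 in WT and between -0.36 and 0.22 in the hap1 deletion. The genes that passed in the hap1 deletion lie at -1.41 there and -0.78 in WT (CYS4) and at -0.91 and -0.42 (SPE3). No ringed gene passed for the difference between strains.

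None of the 6 regulators passed in either strain or for the difference. The activator gene MET4 was above 0 on all 6 arrays, with means of 0.67 ± 0.22 in the hap1 deletion and 0.57 ± 0.06 in WT (SD, n = 3 each; limma adjusted p = 0.0703 and 0.102). The share of all genes that lay above 0 on all 6 arrays was not counted. MET28, a cofactor of Met4 on DNA, was above 0 on all 5 arrays that measured it and averaged 1.05 ± 0.65 in the hap1 deletion (SD, n = 3) and 1.79 in WT (n = 2), with limma adjusted p = 0.0933 and 0.0503. The DNA-binding partners were near 0 or varied: CBF1 averaged 0.47 (n = 2) in the hap1 deletion and -0.72 ± 0.85 in WT, MET31 0.12 (n = 2) in the hap1 deletion and 0.12 ± 0.42 in WT, and MET32 -0.14 ± 0.23 in the hap1 deletion and 0.20 ± 0.13 in WT. MET30, the F-box subunit of the ubiquitin ligase that restrains Met4, averaged 0.08 ± 0.39 in the hap1 deletion and 0.34 ± 0.12 in WT.

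Uptake and side branches gave no call. The sulfate permease gene SUL1 averaged 1.38 ± 1.61 in the hap1 deletion and 1.06 ± 0.61 in WT (SD, n = 3 each), with arrays from -0.25 to 2.97 in the deletion; SUL2 averaged -0.47 ± 0.16 in the hap1 deletion and 0.13 ± 0.56 in WT. MET1, which makes the siroheme of sulfite reductase, averaged 0.11 ± 0.40 in the hap1 deletion and -0.04 ± 0.47 in WT, and MET22, which removes the phosphoadenosine left by the reductase step, -0.23 ± 0.19 in the hap1 deletion and -0.10 ± 0.05 in WT. MET2, which makes the O-acetylhomoserine that MET17 uses, averaged 1.21 ± 0.87 in the hap1 deletion and 0.97 ± 0.64 in WT and was above 0 on all 6 arrays (limma adjusted p = 0.103 and 0.170). HOM6, homoserine dehydrogenase, averaged -0.66 ± 0.07 in the hap1 deletion and -0.31 ± 0.34 in WT. In transsulfuration beyond CYS4 none of 3 genes passed, with means from -0.32 to 0.34 in the hap1 deletion and from -0.29 to 0.15 in WT, STR2 and STR3 included.

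Among 5 transporters of sulfur amino acids the widest means were those of YCT1, a cysteine transporter, at 0.11 ± 0.14 in the hap1 deletion and 1.37 ± 0.94 in WT, and of MMP1, an S-methylmethionine permease, at -1.15 ± 0.67 in the hap1 deletion and -0.36 ± 0.53 in WT. Neither passed. Of 4 genes for other sulfur sources JLP1, a sulfonate dioxygenase, averaged -0.72 ± 0.92 in the hap1 deletion and -0.29 ± 0.22 in WT, and SEO1, a putative permease, 0.91 ± 0.30 in the hap1 deletion and 0.11 ± 1.04 in WT. Among 7 thioredoxin and glutathione genes none passed; GSH1, the first enzyme of glutathione synthesis, averaged -0.71 ± 0.23 in the hap1 deletion and -0.53 ± 0.35 in WT. Unadjusted p was under 0.05 for 1 of the 5 transporters, 1 of the 4 and 2 of the 7 in the hap1 deletion and for 2, 0 and 1 in WT, beside 24.7% of all genes in the hap1 deletion and 24.1% in WT.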

How the data were processed

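The authors deposited 1 log10 ratio of aerobic over hypoxic RNA per gene for 6282 genes on each of 6 2-colour arrays; the direction is that of the titles. Spots were quantified with GenePix 5.0, per the labels; how the ratios were background-corrected, filtered and normalized, and the build of the array design, is not stated there. The base of the logarithm was judged by how many of 36472 values equal a fraction of integers, denominator at most 30, within a relative 1e-08: 325 did for base 10 and 1 for base 2. Array medians ran from 0.0054 to 0.0218 on the log10 scale. Replicate 2, with swapped dyes, correlated with replicates 1 and 3 of its strain (r 0.454 to 0.575), so all ratios were taken as turned the same way. Values were converted to log2, hypoxic over aerobic.

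The 6208 genes with 2 or more values per strain were fitted with limma 3.58.1 in R 4.3.3 (lmFit, eBayes, two-sided), with 1 mean per strain, a residual spread shared by both strains (4 residual and 2.97 prior degrees of freedom) and Benjamini-Hochberg adjustment at 0.05 over all genes tested. The fit was tested on simulated data. Only 3 arrays per strain limit the precision. Symbols came from the RefSeq table of assembly R64, which matched 5707 rows. The members, lists and tests were chosen with earlier results of these data known. Named were the 10 members, all regulators and sulfate permeases, and every listed gene that passed. Also named were the 2 genes per list with the largest absolute strain mean and the 8 genes most like the members. UTR4, SAM3 and MUP1 were added because they shared the signs of OPT1. Alternatives were centring, scaling, other filters, robust eBayes, single-strain fits, a dye term, Cy5 arrays alone, a replicate block and leaving out each array.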

Additional observations from a re-analysis of the deposited data

Results flagged for a closer look

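SAM2 was above 0 on every hap1 deletion array and below 0 on every WT array, a pattern found in 1.11% of genes with 6 values. Its difference, hap1 deletion minus WT, was 1.55 on the log2 scale, and limma's test of that difference did not pass (adjusted p = 0.329).

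OPT1 (YJL212C), a glutathione and oligopeptide transporter, was below 0 on every hap1 deletion array (-4.92, -0.57 and -1.48) and above 0 on every WT array (0.43, 0.67 and 0.70), as were 1.62% of genes. The difference was -2.93 and did not pass (limma adjusted p = 0.535). Of the other listed sulfur genes UTR4, SAM3 and MUP1 had the same signs as OPT1, with differences of -1.24, -0.86 and -0.59. None of these passed (limma adjusted p = 0.382, 0.441 and 0.638).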

How the results depend on the processing

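Of the 10 genes, the 1 that fell in the hap1 deletion became 0 when each strain was fitted alone, with the Cy5-hypoxic arrays only and with the replicate block, and ran from 0 to 2 when single arrays were left out (SAM1 joined CYS4 without hap1 deletion replicate 1). The 1 WT fall became 0 after centring, in the fit of WT alone, with a dye term, with the Cy5-hypoxic arrays only and with the replicate block, 2 (SAM2 and CYS4) after centring and scaling and among genes with 6 values, and 0 whichever array was left out. The 0 calls for the difference stayed at 0 in the 14 alternatives run. The members' median moved to -0.32 in the hap1 deletion and 0.06 in WT among genes with 6 values, where MET14 and MET16 were not tested, and to -0.50, 0.01 and, for the difference, -0.33 with the Cy5-hypoxic arrays only. Leaving out single arrays gave medians from -0.50 to 0.08 in the hap1 deletion, from 0.06 to 0.25 in WT and from -0.59 to -0.17 for the difference. MET14 and MET16 also dropped out with the Cy5-hypoxic arrays only and without hap1 deletion replicate 2 or 3, which left 8 members. The WT median of 0.06 was that of the fits without hap1 deletion replicate 2 or 3, where the WT values of the other members were unchanged. Other causes were not tested. No named gene changed sign in the comparison in which it passed. The WT calls of SAH1, ADO1 and ADI1 were also lost in the fit of WT alone, with a dye term, with the Cy5-hypoxic arrays only and with the replicate block, and the SPE3 call in the hap1 deletion was lost in the fit of the hap1 deletion alone, under the other 3 of these settings, after centring and after centring and scaling. The replicate numbers were not taken as pairs, because the labels do not say that a number is a day shared by the strains. Same-numbered arrays of the strains deviated together at r = -0.0331, 0.0585 and 0.134. The block, a fit with fewer residual degrees of freedom, left 65 calls over all genes in the hap1 deletion, 2 in WT and 0 for the difference. Without it there were 268, 263 and 22. Over the alternatives these totals ran from 28 to 365, from 2 to 374 and from 0 to 23.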

Other observations

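The mean of the members was -0.10 on hap1 deletion replicate 1, over the 8 with a value there, and over all 10 genes -0.38 and -0.73 on hap1 deletion replicates 2 and 3 and -0.29, -0.10 and 0.12 on WT replicates 1 to 3. Among 5171 other genes with 6 values and an SD of at least 0.5 times that of this mean, the 8 with the most similar course over the 6 arrays were DSL1 (Pearson r = 0.996), AI4 (0.967), RPL33A (0.965), VHT1 (0.964), YRF1-8 (0.961), OST6 (0.95), VPS64 (0.948) and MHT1 (0.944). MHT1, a homocysteine methyltransferase that also belongs to the methyl cycle list, read -0.45, -0.96 and -1.07 in the hap1 deletion and -0.72, -0.27 and -0.11 in WT. Over 6 arrays and so many genes such values of r are a description only. They refer to the mean, which included SAM1 at -2.68 on hap1 deletion replicate 2 and MET5 at -3.57 and SAM1 at -2.44 on replicate 3. The members' median took another course, with -0.01, -0.10 and 0.08 on hap1 deletion replicates 1 to 3 and 0.03, 0.03 and 0.16 on WT replicates 1 to 3.

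Of 11 mating type markers 1 fell in the hap1 deletion (MFA2, -1.20 ± 0.36, limma adjusted p = 0.0460), none passed in WT and none for the difference, beside 1.82% of all genes that fell in the hap1 deletion. For the difference 4 of the 11 had an unadjusted p under 0.05, beside 7.97% of all genes, and the list median was -0.92. The markers did not all differ one way. Hap1 deletion minus WT, those of mating type a differed by -0.92 (MFA1), -1.58 (MFA2), -0.94 (STE2), -1.50 (BAR1), -0.70 (STE6), -3.25 (AGA2) and 0.67 (ASG7). Those of mating type alpha differed by -0.08 (MF(ALPHA)1), 0.67 (MF(ALPHA)2), 0.36 (STE3) and -1.20 (SAG1). The unadjusted p-values under 0.05 were those of the mating type a markers MFA2, BAR1, STE6 and AGA2. AGA2 averaged -1.11 ± 0.28 in the hap1 deletion and 2.14 ± 1.59 in WT, and SAG1 0.19 (n = 2) in the hap1 deletion and 1.38 ± 0.91 in WT. Their part in the results above was not tested.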
